A study of Mus musculus with 2 samples.

Results

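Neutrophils were described here among the white blood cells of B16-F10 tumours, grown from a melanoma cell line of the mouse. The tumours were either FDPS-knockout or control, which the labels call WT. FDPS, farnesyl diphosphate synthase, works in the mevalonate pathway, which makes sterols and the lipid anchors of small GTPases. They were taken on day 14 after injection, 3 per group, and sorted viable CD45+ cells of each group gave 1 droplet single-cell library. The labels attach the genotype to the B16-F10 line, and they give neither the number of clones of that line nor the strain, sex and age of the host mice. Cells were not mapped to tumours, so each group is 1 sample. No test between the groups was possible, and every difference below is one between 2 libraries. The 95% intervals (Poisson or binomial for molecules, Clopper-Pearson for shares) cover counting error only.

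A cell was counted as a neutrophil when its unique molecular identifiers (UMIs, each standing for 1 captured transcript) passed 4 gates. S100a8 and S100a9 together had to reach 20 UMIs, and G0s2, Retnlg and Cxcr2 together 2 UMIs. Csf1r, the macrophage colony-stimulating factor receptor of monocytes, was allowed at most 1 UMI, as were the T cell receptor genes Cd3e and Cd3d together. These gates held 163 of the 18112 retained cells, with 70 of 8697 in the FDPS-knockout library and 93 of 9415 in the control library. Neutrophils thus made up 0.805% (0.628 to 1.02) of FDPS-knockout cells and 0.988% (0.798 to 1.21) of control cells. The ratio of the shares was 0.815 (0.589 to 1.12), and this interval of counting error included equal shares. With Csf1r-positive cells left out of the total, the shares were 0.924% in the FDPS-knockout library and 1.60% in the control library. That ratio was 0.577, below the interval above, so the comparison of shares depended on the cells counted in the total.

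Neutrophils are short-lived phagocytes that leave the bone marrow with preformed granules and carry little RNA. The granule proteins are made in waves, azurophil proteins at the promyelocyte stage, specific and gelatinase granule proteins later, and mature cells in tissue make cytokines and chemokines instead. In tumours they have been described both as suppressors of T cells and as cells that can kill or present antigen, and their state follows hypoxia, interferons and inflammatory signals.

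The cells were chosen by the UMIs of the gate genes themselves, so the values of those genes are a description. S100a8 and S100a9, whose proteins form the calcium-binding heterodimer calprotectin, together had a median of 168.5 UMIs per FDPS-knockout neutrophil and 189 per control neutrophil. The lowest sums inside the gate were 29, 29 and 34 UMIs in the FDPS-knockout library, against 20, 20 and 24 in the control library. The highest sums outside it, in cells that passed the other gates, were 19, 16 and 14 UMIs in the FDPS-knockout library, against 17, 16 and 16 in the control library. The FDPS-knockout library thus had a gap below its lowest member, while the control library had members on the limit itself. Retnlg, which encodes a resistin-like protein of marrow neutrophils, was at 2355 CPM (its UMIs scaled to a fixed total over all neutrophils of a library) in the FDPS-knockout library and 711 CPM in the control library. Cxcr2, the receptor that draws neutrophils towards CXC chemokines, was at 691 CPM in FDPS-knockout neutrophils and 503 CPM in control neutrophils. G0s2, an inhibitor of lipolysis, was at 5039 CPM in FDPS-knockout neutrophils and 4584 CPM in control neutrophils.

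**Figure D1:**
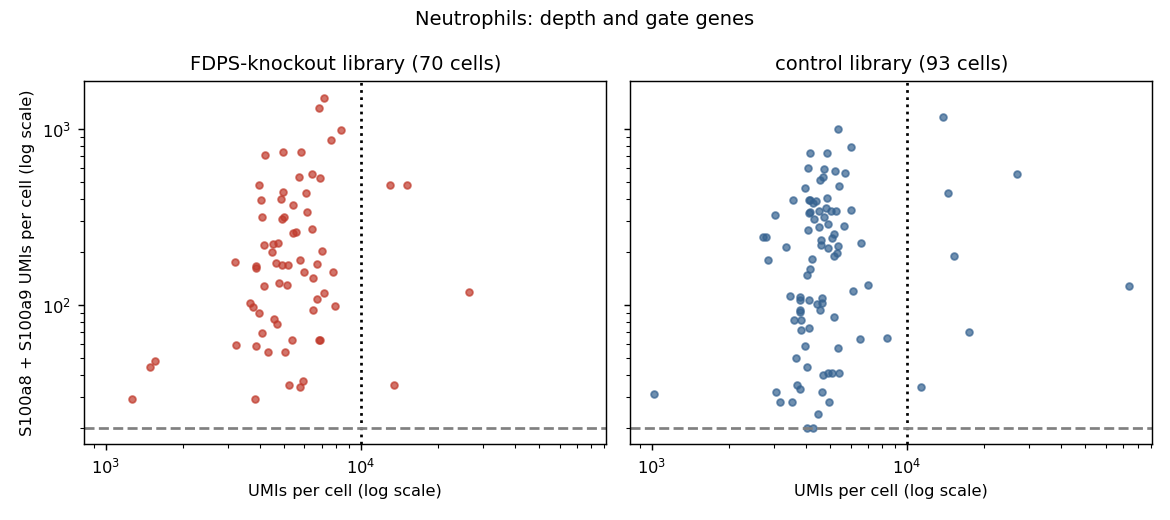
Each point is 1 neutrophil, with its total UMIs on the x axis and the sum of its S100a8 and S100a9 UMIs on the y axis, both on log scales. The dashed line marks the gate at 20 UMIs and the dotted line 10000 UMIs per cell, beyond which lie 4 FDPS-knockout and 7 control barcodes.

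Genes outside the gate also carried a neutrophil signature. All genes of a list of 15 neutrophil markers had UMIs in both libraries. Their sum was 23260 CPM in FDPS-knockout and 17150 CPM in control neutrophils, against 103 and 346 CPM in all other cells of those libraries. This list also held Cxcr2, a gate gene, which gave 691 CPM of the FDPS-knockout sum and 503 CPM of the control sum. That part is a description only. Csf3r, the receptor for granulocyte colony-stimulating factor, was at 2367 CPM in FDPS-knockout neutrophils and 1273 CPM in control neutrophils. Clec4d, a C-type lectin, had a UMI in every neutrophil of both libraries. Ly6g, the surface antigen most used to stain mouse neutrophils, had 4 UMIs in FDPS-knockout neutrophils and 11 in control neutrophils, and Cd177 had 1 and 2. Siglecf, an eosinophil marker, had 4 UMIs in FDPS-knockout and 9 in control neutrophils, and the eosinophil granule genes Prg2 and Epx had none in either.

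Neutrophils held less RNA than other cells. Per cell, the medians were 5157.5 UMIs and 1503 genes in FDPS-knockout neutrophils, against 4563 UMIs and 1430 genes in control neutrophils. Other retained cells had medians of 11235 UMIs and 14184.5 UMIs in those libraries. Ribosomal protein genes took 3.15% of UMIs in FDPS-knockout neutrophils and 4.76% in control neutrophils, against 14.0% and 16.6% in other cells. Mitochondrial genes took a median of 0.210% of UMIs in FDPS-knockout and 0.504% in control neutrophils.

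A few barcodes carried far more RNA and markers of other cells. Barcodes above 10000 UMIs, 4 in the FDPS-knockout and 7 in the control set, held 16.6% and 30.9% of all neutrophil UMIs. The largest control barcode had 73890 UMIs, 9150 genes and 2182 UMIs of melanoma markers. The summed melanoma markers were at 120 CPM in FDPS-knockout neutrophils and 4489 CPM in control neutrophils, and at 132 and 663 CPM with barcodes above 10000 UMIs left out. MHC class II genes were at 681 CPM in FDPS-knockout and 2181 CPM in control neutrophils (372 and 709 CPM without those barcodes), and natural killer (NK) cell markers at 551 and 321 CPM (93.6 and 61.9 CPM). Macrophage markers were at 273 CPM in FDPS-knockout and 927 CPM in control neutrophils (313 and 758 CPM), with Ms4a7 among those at 0 in FDPS-knockout neutrophils. Monocyte markers were at 808 CPM in FDPS-knockout and 608 CPM in control neutrophils, but at 459 and 557 CPM without those barcodes, the other way round. Dendritic cell markers were at 159 CPM in FDPS-knockout and 71.3 CPM in control neutrophils, and at 20.5 and 20.6 CPM without them. B cell markers were at 159 CPM in FDPS-knockout and 90.9 CPM in control neutrophils (93.6 and 87.7 CPM), and T cell markers at 200 and 125 CPM (140 and 132 CPM). The monocyte list holds Csf1r, and the T cell list Cd3e and Cd3d. The gates limited these genes, so their part in the sums was set by the selection. Basophil or mast cell markers had 1 UMI in each library. Values without the barcodes above 10000 UMIs are therefore given beside the counts and medians of gene lists, and beside single genes where leaving those barcodes out ended or turned a difference of at least 2-fold. Of all barcodes, 30 occurred in both libraries, and none of them was a neutrophil in both.

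Outside the gate genes, the 12 genes most concentrated in neutrophils were Hdc, Cxcl2, Il1b, Slc7a11, Ptgs2, Il1r2, Stfa2l1, Mmp9, Ankrd33b, Acod1, Sgms2 and Asprv1. Their order follows the lower of the ratios to all other cells in the 2 libraries, with 10 CPM added to each level. Hdc, which makes histamine from histidine, was at 5442 CPM in FDPS-knockout neutrophils and 2371 CPM in control neutrophils, against 13.8 and 6.31 CPM in other cells. Cxcl2, a ligand of Cxcr2, was at 15253 CPM in FDPS-knockout neutrophils and 18851 CPM in control neutrophils, against 59.9 and 122 CPM in other cells. Acod1, which makes itaconate, was at 4861 CPM in FDPS-knockout neutrophils and 5479 CPM in control neutrophils. Classical monocytes (Ly6c2-positive and Csf1r-positive, 298 FDPS-knockout and 1221 control cells) were far below, with Acod1 at 116 and 241 CPM. Slc7a11, the cystine transporter, was at 1698 CPM in FDPS-knockout neutrophils and 1712 CPM in control neutrophils, nearly the same level in both.

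**Figure D2:**
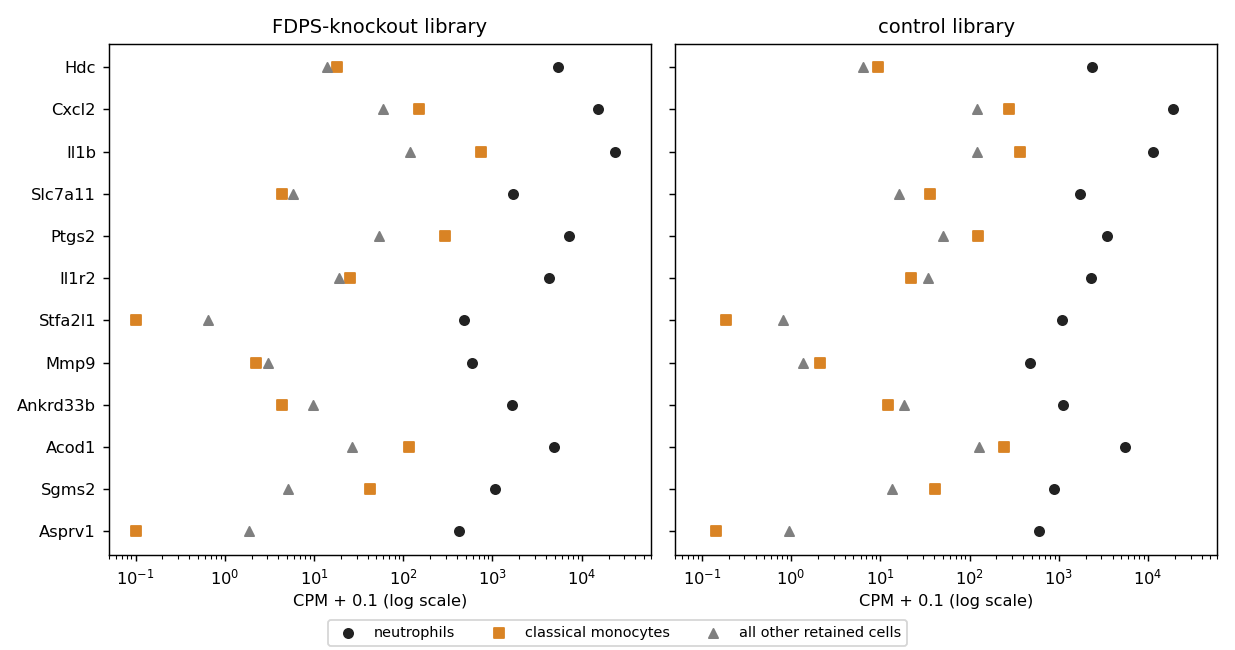
Levels of the 12 genes most concentrated in neutrophils, in CPM + 0.1 on a log scale, in the FDPS-knockout library (left) and the control library (right). Circles are neutrophils, squares classical monocytes and triangles all other retained cells, and in every row of both libraries the circle lies furthest to the right.

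Levels were compared for the 1657 genes with a mean of at least 100 CPM over the 2 libraries, as log2 of (FDPS-knockout CPM + 10) over (control CPM + 10). Of these, 178 (10.7%) were at least 2-fold higher in FDPS-knockout neutrophils and 158 (9.54%) at least 2-fold lower. With barcodes above 10000 UMIs left out, 150 (9.65%) of 1554 genes were higher and 151 (9.72%) lower, of which 123 and 97 were among the genes above. The median log2 ratio of all measured genes was 0.11, and each value below is to be read relative to it. Scaling to that median moved the share of higher genes among all past 2-fold to 44.1%, against 53.0% as measured. The ratio also went with gene span. In the 415 genes with the shortest span the median was -0.26 and in the 414 with the longest 0.31, and over the same genes it was -0.32 and 0.62 in classical monocytes and -0.36 and 0.70 in all other cells. With the median of genes of like span taken off each ratio, 130 genes were at least 2-fold higher and 167 lower.

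**Figure D3:**
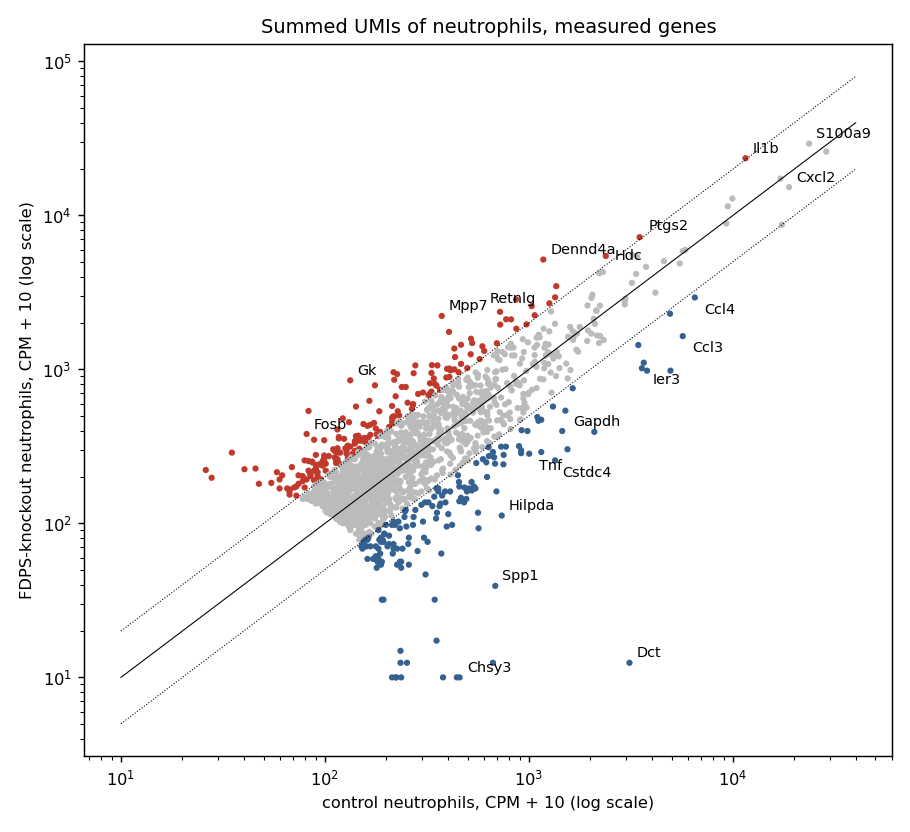
Each point is 1 of 1657 measured genes, with its level in control neutrophils on the x axis and in FDPS-knockout neutrophils on the y axis, in CPM + 10 on log scales. Dotted lines mark 2-fold, with 178 genes above the upper and 158 below the lower one, and Dct, of whose control UMIs 1 barcode held 95.9%, furthest from the diagonal.

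Inflammatory transcripts did not move as a block, with Il1b higher and Tnf lower in FDPS-knockout neutrophils. Il1b, the precursor of interleukin-1 beta, was at 23491 CPM (23024 to 23965) in FDPS-knockout neutrophils and 11516 CPM (11237 to 11800) in control neutrophils, a ratio of 2.04 (1.98 to 2.11). Its log2 ratio of 1.03 lay just past 2-fold and was 0.82 without barcodes above 10000 UMIs. In single cells Il1b ran from 22.2 UMIs per 10000 UMIs of the cell through a median of 267 to 517 in the FDPS-knockout library, and from 0 through 134 to 434 in the control library. The cells of both libraries overlapped over most of that range. After thinning each cell to 1000 UMIs, Il1b had a UMI in 100% of FDPS-knockout and 93.5% of control neutrophils, against 1.8% and 0.8% of thinned T cells, which should lack it. Tnf, the tumour necrosis factor gene, was at 281 CPM (232 to 337) in FDPS-knockout neutrophils and 1139 CPM (1053 to 1231) in control neutrophils, a log2 ratio of -1.98. It was -2.41 without barcodes above 10000 UMIs, and 0.60 in classical monocytes of the same libraries. The 7 measured cytokine and growth factor genes had 1 member past 2-fold each way and a median of -0.58, and none higher, 1 lower and a median of -0.62 without barcodes above 10000 UMIs. Among the others, Osm (oncostatin M) was at 0.79, Il1a at -0.10, Csf1 at -0.69 and Il1rn, the interleukin-1 receptor antagonist, at -0.58.

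Of 8 measured chemokine genes, 4 were at least 2-fold lower and none higher, with a median log2 ratio of -1.02, and 6 were lower without barcodes above 10000 UMIs, with a median of -1.30. Ccl3 and Ccl4, the macrophage inflammatory proteins, were at 1635 and 2921 CPM in FDPS-knockout neutrophils and at 5666 and 6495 CPM in control neutrophils, log2 ratios of -1.79 and -1.15. Cxcl3, another ligand of Cxcr2, was at 273 CPM in FDPS-knockout neutrophils and 993 CPM in control neutrophils (-1.82). Cxcl2 differed by less, at -0.31. Cxcl9 and Cxcl10, interferon-induced ligands of CXCR3 on T cells, were at -1.09 and -0.95. However, 1 barcode held 92.0% of the Cxcl9 UMIs in the FDPS-knockout and 62.0% in the control set. For Cxcl10, 1 barcode held 48.4% of the UMIs in the FDPS-knockout and 29.1% in the control set. Ccl5 alone had a higher level in FDPS-knockout neutrophils, at 0.79, and this ratio ran from 0 to 1.76 over the alternative settings. After thinning, a Ccl5 UMI was found in 8.57% of FDPS-knockout and 5.38% of control neutrophils, against 63.6% and 58.8% of T cells. The source of the Ccl5 UMIs in neutrophils was not tested. Classical monocytes had a median of -0.49 over the same 8 genes.

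Fewer single cells of the FDPS-knockout library were high in Ccl4. Ccl4 ran from 0 through a median of 0 to 621 UMIs per 10000 in FDPS-knockout neutrophils, and from 0 through 2.87 to 673 in control neutrophils. The upper quartile was 3.21 UMIs per 10000 in FDPS-knockout cells and 108 in control cells. The ranges of the libraries overlapped fully. After thinning, 25.7% of FDPS-knockout and 50.5% of control neutrophils had a Ccl4 UMI, against 27.2% and 26.4% of T cells, some of which express Ccl4 themselves. Tnf had a UMI in 17.1% of thinned FDPS-knockout and 32.3% of thinned control neutrophils, against 2.0% and 3.2% of T cells.

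**Figure D4:**
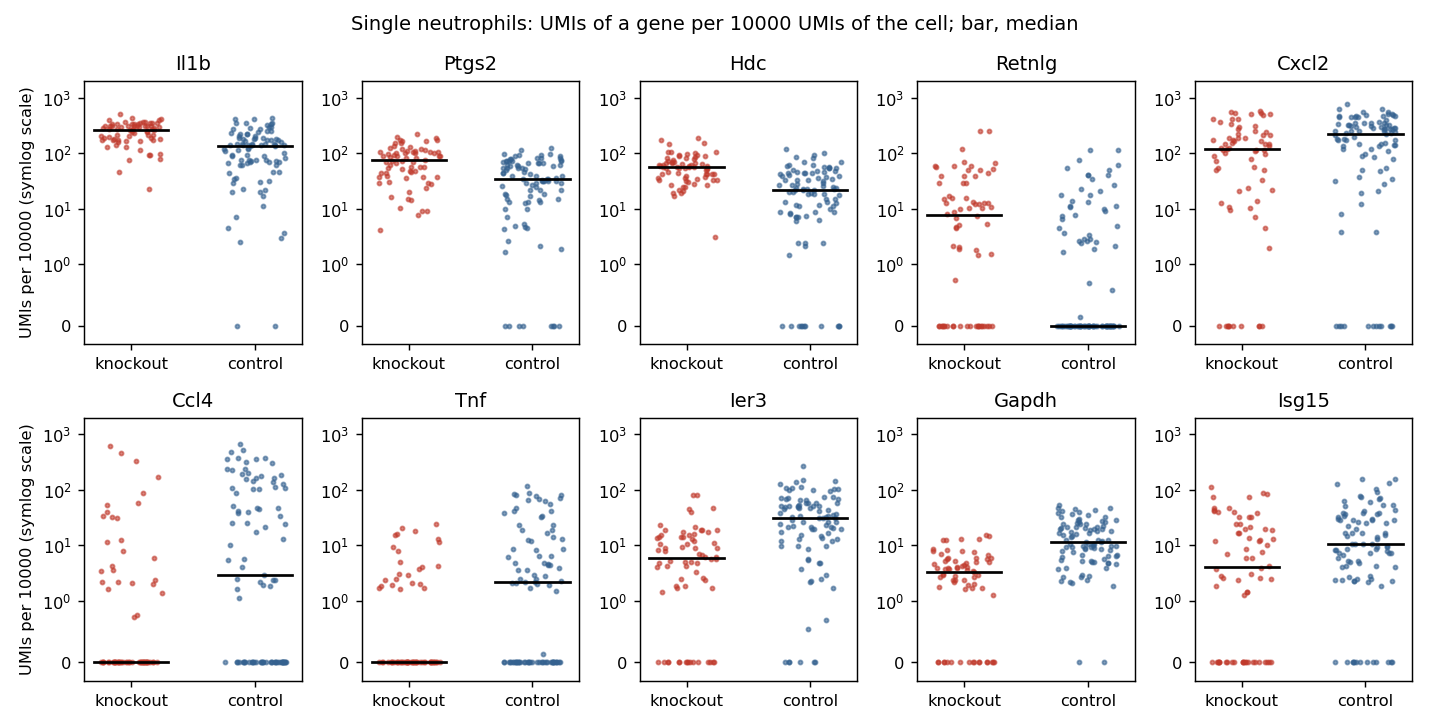
UMIs of 10 genes per 10000 UMIs of the cell, on a scale that is linear below 1 and logarithmic above it, with 1 point per neutrophil, FDPS-knockout left and control right, and a bar at the median. The Il1b medians are 267 and 134, those of Ier3 5.95 and 31.5, and the cells of the libraries overlap for all 10 genes.

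Ptgs2 and Hdc, which serve the synthesis of prostaglandins and histamine, were higher. They were 2 of the 4 measured genes of the prostaglandin, leukotriene and histamine list, none of which was at least 2-fold lower, and the median was 0.89. Of the 4, 1 was past 2-fold without barcodes above 10000 UMIs and the median was 0.73. Ptgs2, the inducible cyclooxygenase COX-2, was at 7211 CPM (6953 to 7475) in FDPS-knockout neutrophils and 3478 CPM (3326 to 3636) in control neutrophils, a ratio of 2.07 (1.96 to 2.20). Its log2 ratio was 1.05, and 0.94 without barcodes above 10000 UMIs. Hdc, described above, had a ratio of 2.29 (2.14 to 2.46) and a log2 ratio of 1.19, or 1.06 without those barcodes. Hdc had a UMI in all 70 FDPS-knockout neutrophils and in 88.2% of control neutrophils, and its median per 10000 UMIs was 55.4 in FDPS-knockout cells and 22.1 in control cells. Alox5ap, which serves leukotriene synthesis, was at 0.59 and Pla2g7, which degrades platelet-activating factor, at 0.74. Ptgs2 was also higher in classical monocytes, at 1.19, while Hdc there was low, at 18.2 CPM in FDPS-knockout and 9.32 CPM in control monocytes.

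Of 11 measured genes of activation and feedback of the transcription factor NF-kB, 4 were at least 2-fold higher and none lower, with a median of 0.81 (0.83 without barcodes above 10000 UMIs, where 2 of 12 were past 2-fold). The 4 were Bcl3 (1.73), a nuclear IkB protein, Tnfaip2 (1.43), Nfkbiz (1.13), another nuclear IkB protein, and Tnfaip3 (1.09), the A20 deubiquitinase. Nfkbiz and Tnfaip3 were at 0.95 and 0.92 without barcodes above 10000 UMIs. Rel was at 0.93, Nlrp3, the inflammasome sensor, at 0.81 and Nfkb1 at 0.67. Nfkbia, the classical IkB inhibitor, was at 5861 CPM in FDPS-knockout neutrophils and 5670 CPM in control neutrophils (0.05). Zfp36, which destabilises cytokine messenger RNAs such as that of Tnf, was at 5403 CPM in FDPS-knockout neutrophils and 3380 CPM in control neutrophils (0.67). Classical monocytes had a median of 0.53 over the same genes.

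Immediate early and heat shock genes, taken as 1 list, had 4 of 21 measured members at least 2-fold higher, 3 lower and a median of 0.07, or 3 higher, 2 lower and a median of 0.01 without barcodes above 10000 UMIs. Fosb and Fos, partners of Jun in the factor AP-1, were at 371 and 3463 CPM in FDPS-knockout neutrophils and at 71.3 and 1351 CPM in control neutrophils (2.23 and 1.35). Fosl2 was at 1.18 and Btg2 at 1.09 (0.95 without those barcodes). Of the 3 lower members Jun, at -1.64, is an immediate early gene. The other two were the chaperone genes Hsp90aa1, at -1.70, and Hspa5, at -1.29 (-0.90 without those barcodes). Hsp90aa1 was at -0.70 with the S100a8 and S100a9 gate lowered to 10 UMIs. Of Hsp90aa1, 32.2% of the control UMIs came from 1 barcode. Nr4a1, an orphan nuclear receptor induced by stimulation, was at 1571 CPM in FDPS-knockout neutrophils and 510 CPM in control neutrophils (1.60). In classical monocytes Fos, Fosb and Nr4a1 were higher too, at 2.02, 1.92 and 2.01. Ier3, an early response gene tied to cell survival, went the other way, at 1008 CPM in FDPS-knockout neutrophils and 3569 CPM in control neutrophils (-1.81), while it was at -0.01 in classical monocytes.

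Of 8 measured genes of the late granules and of mature neutrophils, 1 was at least 2-fold higher and none lower, with a median of 0.87 against 0.11 over all measured genes. The same list had 2 of 9 higher and a median of 0.68 without barcodes above 10000 UMIs. The 1 was Cd101, a surface marker of mature mouse neutrophils, at 193 CPM in FDPS-knockout neutrophils and 74.9 CPM in control neutrophils (1.26). Mxd1, a Myc antagonist of terminal differentiation, was at 4197 CPM in FDPS-knockout neutrophils and 2200 CPM in control neutrophils (0.93). Il1r2, the decoy receptor of interleukin-1, was at 4278 CPM in FDPS-knockout neutrophils and 2295 CPM in control neutrophils (0.90). Csf3r was at 0.89, Adam8 at 0.64, and Mmp9, gelatinase B, at 0.33. Itgam, the CD11b chain, was at -0.18. Mmp8, the neutrophil collagenase, and Padi4, which citrullinates histones in extracellular trap formation, were below the level limit, at 159 and 146 CPM in FDPS-knockout neutrophils and 41.0 and 35.7 CPM in control neutrophils.

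Genes of earlier stages were scarce. The azurophil genes Mpo and Elane and the specific granule gene Camp had no UMI in neutrophils of either library. A count of 0 allows up to 7.32 CPM in FDPS-knockout and 5.35 CPM in control neutrophils, at 3 UMIs over all cells of a library. Ltf, lactoferrin, had 27 UMIs in FDPS-knockout neutrophils and 38 in control neutrophils, and Ngp had 4 and none. Of 4 measured specific granule genes 1 was at least 2-fold higher and none lower, with a median of 0.47 (also 1 of 4, and 0.72, without barcodes above 10000 UMIs). It was Lcn2, which binds bacterial siderophores, at 383 CPM in FDPS-knockout neutrophils and 177 CPM in control neutrophils (1.08, or 0.77 without those barcodes). Hp, haptoglobin, was at 0.78 and Lyz2 at -0.07. The 2 measured cell division genes, H2afz and Hmgb2, were at -0.47 and 0.83. H2afz was at 0.34 with the S100a8 and S100a9 gate lowered to 10 UMIs.

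Of 24 measured glycolysis and hypoxia genes, 13 were at least 2-fold lower and 1 higher, with a median of -1.12, and without barcodes above 10000 UMIs 15 of 25 were lower and none higher, with the same median. Gapdh was at 388 CPM (330 to 453) in FDPS-knockout neutrophils and 1446 CPM (1348 to 1549) in control neutrophils, a ratio of 0.268 (0.225 to 0.318). Per cell it ran from 0 through a median of 3.37 to 15.3 UMIs per 10000 in FDPS-knockout neutrophils, and from 0 through 11.3 to 52.6 in control neutrophils. The upper cells of the control library lay above all FDPS-knockout cells. Tpi1, triosephosphate isomerase, was at 85.4 CPM in FDPS-knockout neutrophils and 385 CPM in control neutrophils (-2.05). Egln3, an oxygen-sensing prolyl hydroxylase that hypoxia itself induces, was at 56.1 CPM in FDPS-knockout neutrophils and 275 CPM in control neutrophils (-2.11). Ldha, lactate dehydrogenase, was at -1.50, Pgk1 at -1.62, Pgam1, phosphoglycerate mutase, at -1.81 and Bnip3, a mitophagy receptor, at -1.54. Hif1a, the oxygen-regulated factor, was at 0.25, and Slc16a3, a lactate exporter, was the higher member at 1.01 (0.73 without barcodes above 10000 UMIs). Over the same genes the median was -1.04 in classical monocytes and -1.47 in all other cells, so lower levels were also found in the other cells of the FDPS-knockout library. Free RNA of the other cells holds these genes too. Estimated from the summed macrophage genes C1qa, C1qb, C1qc and Apoe, it was 13.2% of FDPS-knockout and 13.9% of control neutrophil UMIs. Apoe was at 65.9 CPM in FDPS-knockout and 308 CPM in control neutrophils, against 293 and 995 CPM in other cells. C1qb was at 9.76 and 139 CPM, against 169 and 1431 CPM, so the estimates depended on the genes used. Without barcodes above 10000 UMIs the estimates were 15.0% in the FDPS-knockout and 10.0% in the control set. With the shares estimated over all neutrophils subtracted, the median over the list in neutrophils was -1.07.

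Promoters are shown for 3 glycolysis and hypoxia members that hold the motif ACGTG, a form of the core of the hypoxia response element. Among members with that motif these had the lowest ratios without barcodes above 10000 UMIs. Other forms of the core, such as GCGTG, were not searched. The promoters let the letters be read beside the ratios. The sequences are the 250 bases before the gene start from RefSeq (build GRCm38.p6), 5′ to 3′ on the gene's strand, with ACGTG or its reverse complement CACGT in capitals. CACGTG holds both, overlapping. The promoters are of Egln3 (chr12:54203875-54204124, minus strand), Pgam1 (chr19:41911621-41911870, plus strand) and Bnip3 (chr7:138909507-138909756, minus strand).
Egln3: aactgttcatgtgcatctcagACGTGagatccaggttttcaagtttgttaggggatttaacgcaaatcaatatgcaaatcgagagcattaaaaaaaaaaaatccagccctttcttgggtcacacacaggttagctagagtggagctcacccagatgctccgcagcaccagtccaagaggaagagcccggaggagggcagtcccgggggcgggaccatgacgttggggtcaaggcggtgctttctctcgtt
Pgam1: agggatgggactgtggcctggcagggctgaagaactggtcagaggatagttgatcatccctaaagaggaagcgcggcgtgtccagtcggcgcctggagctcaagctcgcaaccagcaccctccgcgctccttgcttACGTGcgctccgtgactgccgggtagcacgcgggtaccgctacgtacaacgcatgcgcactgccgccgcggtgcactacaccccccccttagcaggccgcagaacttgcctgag
Bnip3: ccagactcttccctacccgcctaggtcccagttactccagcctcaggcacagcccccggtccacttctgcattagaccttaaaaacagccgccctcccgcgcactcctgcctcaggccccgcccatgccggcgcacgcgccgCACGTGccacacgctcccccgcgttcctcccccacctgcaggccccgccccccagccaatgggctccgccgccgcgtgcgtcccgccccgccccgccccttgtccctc
Tpi1 and Gapdh, which had lower ratios than Pgam1, held neither ACGTG nor CACGT in these bases. The Gapdh bases do hold GCGTG, which was not counted as a match in any promoter. A match stood in 12 of the 21 list members with a promoter (57.1%), in 7 of the 11 that were at least 2-fold lower (63.6%) and in 5 of the other 10. Of all promoters 16.6% held one, and of those of measured genes 23.9%. A match describes letters and not a bound site.

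Further transcripts named by their ratios, or after their values were seen, are given here. Fth1 and Ftl1, the ferritin chains, were at 8704 and 2289 CPM in FDPS-knockout neutrophils and 17387 and 4907 CPM in control neutrophils (a ratio of 0.501 for Fth1, just short of 2-fold, and a log2 ratio of -1.10 for Ftl1), and at log2 ratios of -1.59 and -1.66 in classical monocytes. Hilpda, a hypoxia-inducible lipid droplet protein, was at 102 CPM in FDPS-knockout neutrophils and 726 CPM in control neutrophils (-2.71). Plin2, a lipid droplet coat protein, was at 107 CPM in FDPS-knockout neutrophils and 553 CPM in control neutrophils (-2.26). Spp1, osteopontin, was at 29.3 CPM in FDPS-knockout neutrophils and 674 CPM in control neutrophils (-4.12), but 1 barcode held 46.3% of its control UMIs. Hmox1, heme oxygenase 1, was at -1.92. Macrophage markers, given above, were also lower in FDPS-knockout neutrophils, at 273 CPM against 927 CPM in control neutrophils, and their part in the levels of Spp1, Hmox1 and Plin2 was not tested. Of 7 measured stefins and protease inhibitors, 1 was at least 2-fold higher (Wfdc21, 1.05) and 2 lower (Cstb, -1.20, and Stfa2l1, -1.16), with a median of -0.07. Without barcodes above 10000 UMIs none of 8 was higher (Wfdc21, 0.72), 3 were lower and the median was -0.21. Cstdc4, a stefin-family gene outside that list, was at 246 CPM in FDPS-knockout neutrophils and 1334 CPM in control neutrophils (-2.39). Stefin genes have near-identical copies, so reads may be split among them.

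Of 17 measured suppressive and tumour-associated neutrophil genes, 4 were at least 2-fold higher and 3 lower, with a median of -0.07. Without barcodes above 10000 UMIs 3 of 16 were higher and 2 lower, with a median of -0.20. Arg2, the mitochondrial arginase, was at 1357 CPM (1246 to 1474) in FDPS-knockout neutrophils and 421 CPM (369 to 478) in control neutrophils (1.67). Olr1, the oxidised-LDL receptor LOX-1, was at 398 CPM in FDPS-knockout neutrophils and 105 CPM in control neutrophils (1.82). The other higher members were Ptgs2, given above, and Nfe2l2 (1.26), the antioxidant factor NRF2. The lower ones were Spp1, Ctsb (-1.43), cathepsin B, and Gpnmb (-4.35), of which 1 control barcode held 89.1% of UMIs. Cd274, the checkpoint ligand PD-L1, was at 1010 CPM in FDPS-knockout neutrophils and 1401 CPM in control neutrophils (-0.47). Arg1, the cytosolic arginase, had 1 UMI in FDPS-knockout and 12 in control neutrophils, and Nos2 had none and 8. Entpd1, the ATP-degrading ectoenzyme CD39, was at 2831 CPM in FDPS-knockout neutrophils and 854 CPM in control neutrophils (1.72), and Cd80, a T cell costimulator, was at 759 and 228 CPM (1.69). In classical monocytes these were at 0.20 and 0.12.

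Interferon-stimulated genes lay slightly below the median of all genes. Of 31 measured, none was at least 2-fold higher and 1 was lower, with a median of -0.24. Without barcodes above 10000 UMIs 5 were lower and the median was -0.47. Over the same list the median was -0.36 in classical monocytes and -1.03 in all other cells. Isg15, a ubiquitin-like modifier, was at 1635 CPM in FDPS-knockout neutrophils and 2227 CPM in control neutrophils (-0.44). Isg20, an exonuclease, was the lower member, at 163 CPM in FDPS-knockout neutrophils and 446 CPM in control neutrophils (-1.39). Ifit1, which binds foreign RNA, was at -0.97 and Rsad2, viperin, at -0.24, or -0.98 without barcodes above 10000 UMIs, with 34.2% of its FDPS-knockout UMIs in 1 barcode. Per 1000 UMIs the list summed to 0 to 66 UMIs in FDPS-knockout neutrophils, with a median of 10, and to 1 to 111 in control neutrophils, with a median of 19. Interferon-gamma-induced genes had 1 of 11 lower, none higher and a median of -0.09, and 2 of 10 lower, none higher and a median of -0.08 without barcodes above 10000 UMIs. Of 11 MHC class I genes none was past 2-fold either way, with a median of 0.15 (none of 10, and -0.13, without those barcodes), and B2m was at -0.16.

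Of 9 measured receptors for chemoattractants, 1 was at least 2-fold lower and none higher, with a median of 0.00 (also 1 of 9, and -0.26, without barcodes above 10000 UMIs). Hcar2, a receptor for ketone bodies and niacin, was at 564 CPM in FDPS-knockout neutrophils and 1302 CPM in control neutrophils (-1.19). Cxcr4, which holds neutrophils in the marrow, was at 874 CPM in FDPS-knockout neutrophils and 551 CPM in control neutrophils (0.66), and the formyl peptide receptor gene Fpr1 was at -0.57. Over all measured genes 10.7% were higher and 9.54% lower. Adhesion genes had 2 of 10 higher, none lower and a median of 0.62 (also 2 of 10, and 0.38, without barcodes above 10000 UMIs). Those were Itga4 (1.52), an integrin chain, and Selplg (1.23), the ligand of P-selectin. Toll-like and innate sensor genes had 2 of 7 higher, none lower and a median of 0.40 (2 of 6, and 0.45, without barcodes above 10000 UMIs). Tlr2, the lipopeptide receptor, was at 337 CPM in FDPS-knockout neutrophils and 89.1 CPM in control neutrophils (1.81), but at 0.39 with cells thinned to 1000 UMIs. Tlr4 was at -0.81. Fc and C-type lectin receptor genes had 3 of 14 higher, none lower and a median of 0.34, and without barcodes above 10000 UMIs none of 15 was higher and 1 lower, with a median of 0.18. The 3 were Cd33 (1.29), Cd300ld (1.22) and Trem3 (1.08), at 0.96, 0.98 and 0.78 without those barcodes.

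Oxidase, survival and factor genes were spread around the background. NADPH oxidase and reactive oxygen genes had 2 of 12 higher, 2 lower and a median of 0.14, and 2 of 11 higher, 2 lower and a median of -0.08 without barcodes above 10000 UMIs. Cybb, the membrane core of the oxidase, was at 0.15, or -0.96 without those barcodes. Survival and cell death genes had 1 of 16 higher, 2 lower and a median of 0.20 (1 of 15 higher, 2 lower and 0.00 without those barcodes). Birc3, an inhibitor of apoptosis, was at 1474 CPM in FDPS-knockout neutrophils and 517 CPM in control neutrophils (1.49). Mcl1, on which neutrophil survival depends, was at 0.22, and Cflar, an inhibitor of caspase 8, was lower at -1.04. Neutrophil transcription factor genes had 1 of 14 higher, 1 lower and a median of 0.28 (none of 13 higher, 1 lower and 0.13 without those barcodes). The higher one, Irf8, was at 1.12 but at -0.95 without barcodes above 10000 UMIs, and Bhlhe40 was at -1.24. Cebpb, a factor of emergency granulopoiesis, was at 0.30.

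**Figure D5:**
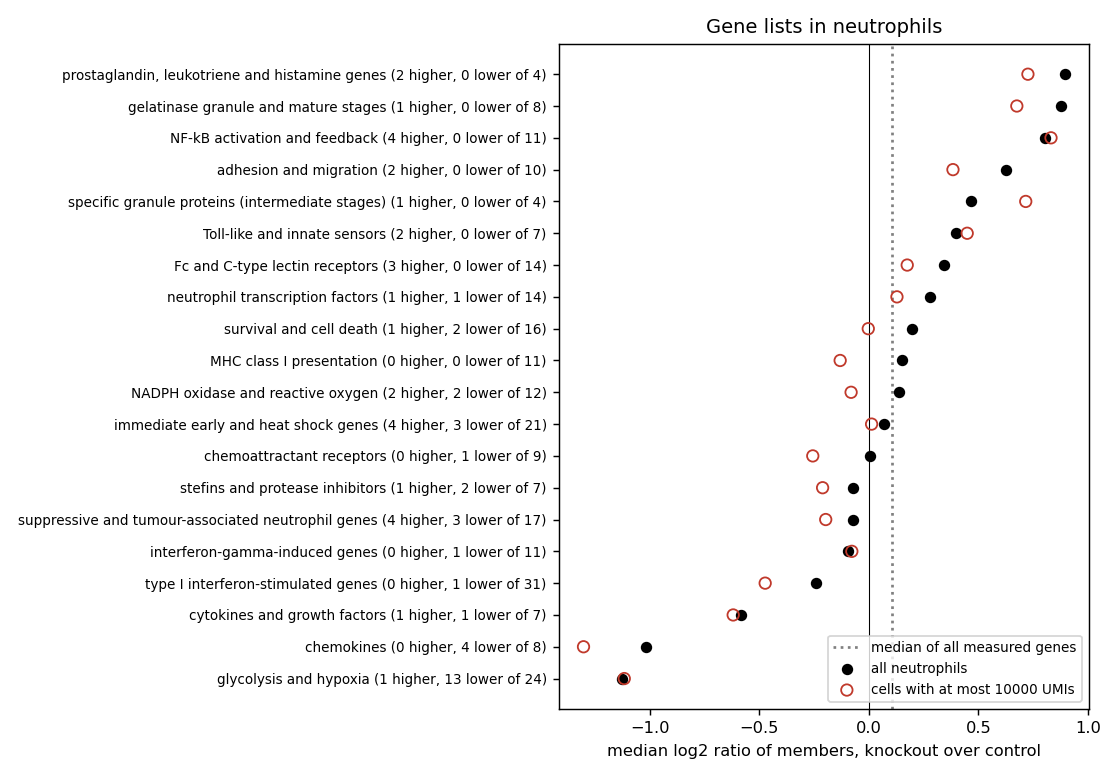
Median log2 ratio (FDPS-knockout over control) of the measured members of each gene list, for all neutrophils (filled) and for those with at most 10000 UMIs (open), beside the median of all measured genes at 0.11 (dotted). Prostaglandin and histamine, late granule and NF-kB genes lie highest, at 0.89, 0.87 and 0.81, and chemokine and glycolysis genes lowest, at -1.02 and -1.12.

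The 12 genes with the highest ratios, among those whose counting interval lay beyond 1.5-fold, split by the barcodes that held them. Rnf220 (3.09), Tmem163 (3.04), Ppm1l (2.83) and Srgap3 (2.69) had 85.1% to 95.4% of their FDPS-knockout UMIs in 1 barcode, and Lair1 (2.48) had 54.5%. Without barcodes above 10000 UMIs these stood at 0.04, 0.04, 1.12, 0.33 and 1.03. The others were spread over cells. Dennd4a, an activator of a Rab GTPase, was at 5158 CPM (4941 to 5383) in FDPS-knockout neutrophils and 1166 CPM (1078 to 1259) in control neutrophils (2.14). It ran from 6.81 through a median of 53.3 to 163 UMIs per 10000 in FDPS-knockout cells and from 0 through 8.71 to 97.8 in control cells, and it was at 1.72 in classical monocytes. Mpp7, a membrane scaffold protein, was at 2216 CPM in FDPS-knockout neutrophils and 364 CPM in control neutrophils (2.57), with 2.37 in classical monocytes. Gk, glycerol kinase, was at 839 CPM in FDPS-knockout neutrophils and 123 CPM in control neutrophils (2.67), with -0.36 in classical monocytes. Fosb, given above, Isy1 (2.31), Coq10b (2.16) and Ralgapa1 (2.15) completed the list. Without barcodes above 10000 UMIs it also took in Braf, Pde4b, Stat4, Rdh12 and Fbxo11. Pde4b, a cyclic AMP phosphodiesterase, was at 1742 CPM in FDPS-knockout neutrophils and 396 CPM in control neutrophils (2.11).

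The 12 lowest genes came mostly from 1 control barcode. Dct, Prkg1, Chsy3, Ankfn1, Tyr, Nrcam, Syt4, Dst, Ptprm, Gpnmb, Pde11a and Scd2 had 86.5% to 100% of their control UMIs in it. Dct, a melanin synthesis gene, had 1 UMI in FDPS-knockout neutrophils and 1739 in control neutrophils, a log2 ratio of -7.97, or -3.84 without barcodes above 10000 UMIs. Chsy3 had none and 251 UMIs, at least 61.1-fold lower in the FDPS-knockout set against the limit of 3 UMIs. With barcodes above 10000 UMIs left out, Dst, Prkg1, Ankfn1, Tyr, Nrcam and Ptprm were between -0.83 and -0.60 and Pde11a was at 0.37. Without barcodes above 10000 UMIs the lowest ratios also took in Spp1, Gadd45g (-3.30), F10 (-3.05), Chka (-2.99), Hilpda (-2.98), Fam162a (-2.87), Cstdc4 (-2.85), Upp1 (-2.78), Fnip2 (-2.61), Plin2 (-2.51), Gm43661 (-2.50) and Tnf (-2.41). Of these, Gadd45g, Chka and Gm43661 were at -0.12, 0.53 and -0.03 in classical monocytes, while Hilpda and Upp1 were at -2.04 and -2.18 there.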

How the data were processed

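The submitters made droplet single-cell libraries with Cell Ranger 7.2.0 and genome build mm10, per the submitters' processing notes and the file headers, with an annotation not given in the sources used here. The deposited matrices hold whole UMI counts per gene and barcode, as the authors' pipeline wrote them, with 9130 FDPS-knockout and 10882 control barcodes. Barcodes with at least 200 genes and under 10% mitochondrial UMIs were retained, 95.3% of FDPS-knockout and 86.5% of control barcodes. The neutrophil gates and the gene lists were chosen with earlier results of these data known.

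Counts were summed over the neutrophils of a library (409810 UMIs in FDPS-knockout and 560877 in control neutrophils) and scaled to CPM. Ratios used a pseudocount of 10 CPM and genes with a mean of at least 100 CPM. The intervals and the ratio were tested on simulated data. Those were Poisson counts, as the intervals assume, without the clustering of UMIs in single barcodes. How the intervals perform with such clustering was not tested. With 1 library per group there is no test between groups and no p-value. Shares of cells with a UMI used cells thinned to 1000 UMIs, which left out no neutrophil, with 500 T cells drawn per library for comparison. Doublets were not removed for the values reported. Scrublet scores served as an alternative, as did a limit of 10000 UMIs per barcode, which was added after seeing the data. It was added because barcodes above it carried markers of other cells.

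Genes were named by a rule: the gate genes, the 12 highest and 12 lowest ratios with a counting interval beyond 1.5-fold, and in each list its 2 highest-expressed members and its highest and lowest ratio. The 12 genes highest over other cells were also named. The other list members and Entpd1, Cd80, Nr4a1, Fth1, Ftl1, Mmp8, Padi4, Arg1 and Nos2 were named after their values were seen. Some genes that the rule names are not reported here. Of 32285 gene identifiers, 32235 were found in GENCODE vM21, which gave the spans. Promoters came from RefSeq. Tools were Python 3.11.15, numpy 2.4.6, pandas 2.3.3, scipy 1.17.1, scanpy 1.11.5 and matplotlib 3.10.9.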

Additional observations from a re-analysis of the deposited data

How the results depend on the processing

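No paired analysis was possible because each group is 1 library. The neutrophil share stayed below that of the control library under each gate, mitochondrial, gene-number and doublet setting. With Csf1r-positive cells out of the total, the control share was 1.60% and the ratio 0.577. With a limit of 300 CPM, 79 genes were at least 2-fold higher and 56 lower in FDPS-knockout neutrophils, and with 30 CPM 324 and 532. With that lower limit, 37.9% of the genes past 2-fold were higher, against 53.0% as reported. Of 128 named genes 70 were past 2-fold, and 41 of those (19 higher, 22 lower) stayed past it under all 17 alternatives. Those that did not included Il1b (0.82 to 1.21), Ptgs2 (0.85 to 1.15), Ccl4 (-1.68 to -0.78), Tlr2 (0.39 to 1.99), Cd33 (0.59 to 1.37), Lcn2 (0.70 to 1.44), Cd101 (0.92 to 1.57), Hsp90aa1 (-2.28 to -0.70), Hcar2 (-1.76 to -0.83) and Bhlhe40 (-2.16 to -0.93). Among genes past 2-fold, signs turned for Pde11a (0.32 at a mitochondrial limit of 5%, 0.37 with at most 10000 UMIs, 0.32 without the control barcode with the most UMIs), for Ppm1l (-0.10) and Rnf220 (-0.25) with doublet scores removed, and for Irf8 (-0.68 with doublet scores removed, -0.066 after thinning, -0.95 with at most 10000 UMIs). The cause was not tested. Signs of genes within 2-fold turned too, among them G0s2, Cxcl2, Acod1, Slc7a11, Nfkbia, Lyz2, Mcl1, B2m and H2afz (-0.74 to 0.34). List medians ran from -1.48 to -0.90 for glycolysis and hypoxia, -1.47 to -0.68 for chemokines, 0.61 to 1.05 for NF-kB, 0.63 to 0.89 for late granule, 0.67 to 0.95 for prostaglandin and histamine and -0.54 to -0.05 for interferon-stimulated genes. With 70 and 93 cells, genes under about 100 CPM rest on few UMIs.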

Other observations

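Mevalonate and sterol synthesis genes were too low in neutrophils for a comparison, and none of the 22 listed reached a mean of 100 CPM. Fdps, the gene knocked out in the tumour line, had 9 UMIs in FDPS-knockout neutrophils and 10 in control neutrophils, and 88.9% of the FDPS-knockout UMIs came from 1 barcode. The labels attach the knockout to the tumour line and these are host cells, so this level is no check of it.

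Single neutrophils also differed within a library. Il1b went with Ptgs2 with a Spearman rho of 0.46 over 70 FDPS-knockout and 0.24 over 93 control cells. Cxcl2 went with the glycolysis and hypoxia sum at 0.03 over FDPS-knockout and 0.41 over control cells. Cells of 1 library share its preparation and depth, the values are shares of the same total, and the differences between libraries were not tested.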
